A study of Mus musculus with 30 samples.

Results

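The change in RNA levels between 60 and 84 h after muscle injury was followed in satellite cells, from which skeletal muscle regenerates, sorted from young mice by the surface protein VCAM. The arrays were chosen by their sample titles: the 3 arrays of young VCAM-sorted cells at 84 h were set against the 3 arrays of the same cells at 60 h, 6 of the 30 arrays in the series, and all 19938 genes with a probe set of their own were compared. Both groups came from hindlimb muscles of wildtype C57BL6 mice aged 2 to 3 months that had received a BaCl2 injury, and the sort kept cells that were VCAM+, CD31-, CD45- and Sca1-. The same step was measured in a second set of 6 arrays, from Pax7CreER/+;ROSA26eYFP/+ mice of the same age given tamoxifen and the same injury, in which YFP+ cells were sorted. In that model Cre is made where Pax7 is active, so the label marks cells that expressed Pax7 when tamoxifen was given and their descendants. Uninjured quiescent satellite cells (QSCs) and cells 36 h after injury are used below only to place the levels at 60 and 84 h.

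After injury, satellite cells leave quiescence, divide as myoblasts, and then either withdraw from the cell cycle to differentiate or return to quiescence. Differentiation runs through myogenin and the Mef2 factors, which switch on genes for contractile proteins, for the calcium stores that drive contraction and for the membrane proteins that fuse myoblasts into fibres. Notch signalling, by contrast, is known for holding satellite cells in an undifferentiated state.

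All levels are log2 RMA values, so a difference of 1 is a change of 2-fold, and levels of different genes are not compared because each probe set has its own brightness. A gene was said to rise or fall where its Benjamini-Hochberg adjusted p in limma was under 0.05 and its fold change at least 1.5. Over all 35556 probe sets, the median level of an array lay between 7.03 and 7.06 in all 6 arrays. Replicate arrays correlated across genes at 0.9962 to 0.9974 at 60 h and 0.9973 to 0.9977 at 84 h. The median within-group SD of a gene was 0.10 over all 10 groups and 0.09 in these 6 arrays. No labels tie the 3 arrays of a group to separate animals, so p-values measure only the spread between samples within groups. This spread was estimated over all 30 arrays. Those include VCAM-sorted QSCs and 60 h cells from mice aged 22 to 24 months. The number of arrays limits the precision. In a sorted pool, fewer cells of a type and less RNA per cell cannot be told apart.

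Between 60 and 84 h, 642 genes rose and 146 fell, which was 3.22% and 0.732% of the 19938 genes tested. Rises therefore made up 81.5% of the calls, or 64.5% when each array was centred on its median over the tested genes (504 rose and 277 fell). Centring moved the median change of all genes from -0.01 to -0.09. The rises were also larger than the falls. Of the genes that rose, 204 changed at least 2-fold and 19 at least 4-fold, with a median log2 change of 0.82. Of those that fell, 9 changed at least 2-fold, with a median of -0.69. The arrays of the 2 times did not overlap for any of the 642 rising genes and overlapped for 1 of the 146 falling genes. Across all genes, 3758 were higher and 3792 lower at 84 h without overlap between the arrays, so without a threshold the directions were nearly even. These counts include the called genes, most of which rose, so among the other genes without overlap falls were more frequent than rises.

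**Figure D1:**
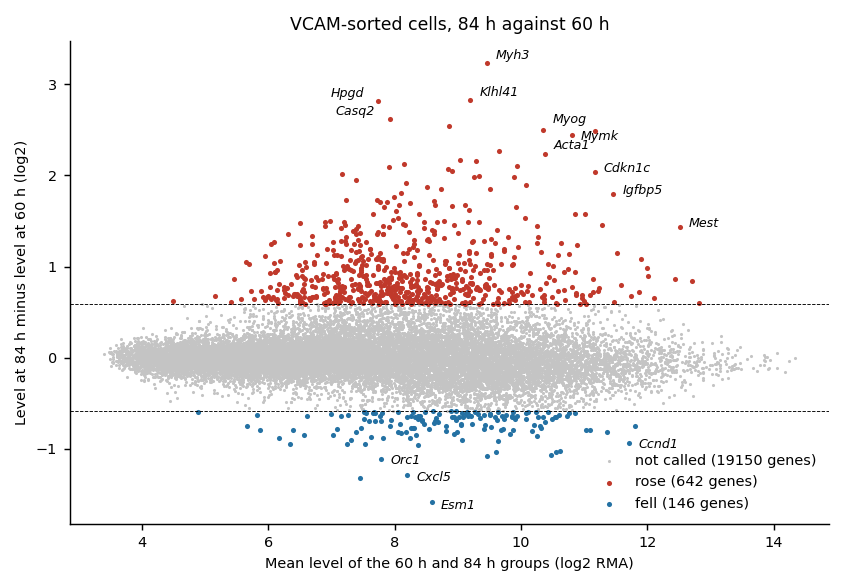
Each point is a gene, with its mean level over the 60 h and 84 h groups on the x axis (log2 RMA) and its level at 84 h minus that at 60 h on the y axis (log2), for VCAM-sorted cells with 3 arrays a group. Red points are the 642 genes that rose, blue points the 146 that fell, and dashed lines mark a fold of 1.5. The rises reach 3.24 (Myh3) and the falls -1.58 (Esm1).

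The regulators that rose were Myog, Mef2c and Mef2a. Of 6 measured myogenic regulatory factors and Mef2 genes, 3 rose and 0 fell (median log2 change 0.64). Myog (probe set 10349993, Entrez 17928; chr1:134290004-134292548 in GRCm38.p6), the factor that commits myoblasts to differentiation, was at 9.01, 9.13 and 9.18 on the 60 h arrays and at 11.57, 11.61 and 11.64 on the 84 h arrays. The groups were far apart, and the step of 2.50 ± 0.07 (SE), 5.64-fold, had an adjusted p of 5.8e-20. Mef2c, a partner of the myogenic factors, stood at 7.26, 6.95 and 7.12 at 60 h and at 8.76, 9.05 and 8.80 at 84 h. It was lower at 60 h than in QSCs (8.07) or at 36 h (8.23), so the rise of 1.76 ± 0.07 (adjusted p = 2.4e-16) started from the lowest point of the time course. Mef2a rose by 0.90 ± 0.05, from 11.57 ± 0.04 to 12.47 ± 0.03 (SD, n = 3).

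The other myogenic factors, the Mef2 gene Mef2d and Pax7 did not pass the thresholds. Myod1, which opens the myogenic programme, was at 11.96 ± 0.04 at 60 h and at 12.03 ± 0.04 at 84 h (SD, n = 3), a difference of 0.07 with an adjusted p of 0.22 and with overlap between the arrays. Myf5 had a difference of 0.11 (adjusted p = 0.19), Myf6 of 0.03 and Mef2d of 0.37. Pax7, the defining transcription factor of satellite cells, was at 9.18, 9.24 and 9.15 at 60 h and at 9.66, 9.71 and 9.80 at 84 h. Every 84 h array was above every 60 h array (adjusted p = 3e-07), but the change of 1.45-fold stayed under the threshold, and the level in QSCs was 11.68. Among 13 upstream regulators, 1 fell and 0 rose, with a median of 0.11, and 4 were higher and 1 lower by the adjusted p alone, with no threshold on the fold. By that rule 14.6% of all genes were higher and 13.4% lower. The falling gene was Sim2, at -0.61.

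The promoter of Myog is shown because this gene is the regulator with the largest step. It is the RefSeq window from 250 bases before to 50 after the start of the first listed transcript, in build GRCm38.p6, chr1:134289754-134290053, plus strand, 5′ to 3′.
Myog promoter: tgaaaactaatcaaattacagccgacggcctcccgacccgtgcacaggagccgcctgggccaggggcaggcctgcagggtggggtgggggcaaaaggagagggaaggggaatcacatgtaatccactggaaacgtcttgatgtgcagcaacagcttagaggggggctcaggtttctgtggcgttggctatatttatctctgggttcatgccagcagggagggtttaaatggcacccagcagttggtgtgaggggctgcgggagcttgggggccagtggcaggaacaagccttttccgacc
The letters searched in such windows, on both strands, were the E-box CAGCTG, bound by myogenic factors, the MCAT element CATTCC, the Mef2 site, the CArG box, the interferon element GAAANNGAA, the E2F sites TTTCCCGC and TTTGGCGC, and the cell cycle element CHR, TTTGAA. The Mef2 site and the CArG box were each searched in 1 strict consensus form, so sites that depart from it were not counted. Capitals mark matches in every window printed. No such string was found in the Myog window, which does not show that it lacks a site. Among 15614 tested genes with a window, 15.9% had the E-box. The share was 28.3% among the 487 windows of genes that rose and 17.9% among the 106 of genes that fell. The Mef2 site was in 4.52% of the windows of rising genes against 2.63% of all, and the CArG box in 2.67% against 1.42%. These shares describe letters in short windows and were not tested.

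Genes for sarcomere proteins of embryonic and cardiac type made the largest group step of the comparison. Of 22 measured members 16 rose and 0 fell, with a median log2 change of 1.67 against -0.01 over all genes. By the adjusted p alone, 20 of the 22 were higher at 84 h. Myh3, the embryonic myosin heavy chain (probe set 10377018, Entrez 17883; chr11:67078273-67102291), was at 7.69, 7.86 and 7.98 at 60 h and at 11.10, 11.06 and 11.07 at 84 h. This was the largest rise of all genes, 3.24 ± 0.08 or 9.42-fold (adjusted p = 1.8e-20), and the level had been 6.04 in QSCs and 5.94 at 36 h. The slow troponin I gene Tnni1 rose by 2.55 ± 0.10, cardiac actin Actc1 by 2.49 ± 0.07, the thin filament ruler nebulin (Neb) by 2.26 ± 0.05, slow troponin T (Tnnt1) by 2.15 ± 0.09 and cardiac troponin T (Tnnt2) by 2.10 ± 0.06. Titin (Ttn), the giant spring of the sarcomere, rose by 1.14 and the perinatal myosin Myh8 by 0.93. The mean level of the list ran from 7.74 to 7.78 across the 60 h arrays and from 9.21 to 9.24 across the 84 h arrays, while QSCs (7.29 to 7.32) and 36 h cells (7.18 to 7.23) lay lower than both.

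The promoters of Myh3 and Tnnt2 are printed for this group, Myh3 for its step and Tnnt2 as the called member with the largest change whose window held both the E-box and the MCAT element, a choice made after the values were seen. They are chr11:67078050-67078349 and chr1:135836084-135836383 in GRCm38.p6, both on the plus strand, with all matches in capitals.
Myh3 promoter: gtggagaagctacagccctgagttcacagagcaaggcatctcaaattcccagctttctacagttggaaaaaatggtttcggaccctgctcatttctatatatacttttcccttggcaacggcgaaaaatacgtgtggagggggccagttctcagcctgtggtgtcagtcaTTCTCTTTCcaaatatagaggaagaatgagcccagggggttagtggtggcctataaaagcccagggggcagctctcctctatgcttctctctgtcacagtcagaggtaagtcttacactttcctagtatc
Tnnt2 promoter: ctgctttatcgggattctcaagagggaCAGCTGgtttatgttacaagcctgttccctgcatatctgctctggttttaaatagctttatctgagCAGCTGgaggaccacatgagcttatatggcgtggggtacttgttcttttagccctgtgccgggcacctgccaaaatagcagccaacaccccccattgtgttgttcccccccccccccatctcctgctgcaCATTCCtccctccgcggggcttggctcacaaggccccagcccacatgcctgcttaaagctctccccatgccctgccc
The Tnnt2 window held the E-box at 223 and 157 bases before the start and the MCAT element at 27 bases before it, and the Myh3 window held 1 interferon element, 80 bases before the start, and no other searched letters. Of 20 windows in this list, 7 (35%) held the E-box and 7 (35%) the MCAT element, against 15.9% and 13.1% of all windows.

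Genes of mature fibres followed in part. Of 22 genes for sarcomere and metabolic proteins of adult fibres, 10 rose and 0 fell (median 0.36). Skeletal actin, Acta1, was at 9.31, 9.29 and 9.17 at 60 h and at 11.48, 11.47 and 11.52 at 84 h, a rise of 2.23 ± 0.06 (adjusted p = 4e-20). Fast troponin T (Tnnt3) rose by 1.89, the muscle phosphoglycerate mutase Pgam2 by 1.57, fast troponin C (Tnnc2) by 1.49 and muscle creatine kinase (Ckm) by 0.77. Of the adult myosin heavy chains, Myh1 rose by 1.29 ± 0.12, from 6.65, 6.88 and 6.79 to 7.92, 8.31 and 7.97. Myh2 (0.25), Myh4 (0.28) and Myh7 (0.04) were not called, and their arrays lay between 5.55 and 6.62 at both times.

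Factors that fold and anchor the contractile filaments rose as well. Of 30 sarcomere assembly chaperones and Z-disc scaffolds 14 rose and 0 fell (median 0.50). Klhl41, which stabilises nebulin, was at 7.68, 7.72 and 7.94 at 60 h and at 10.61, 10.64 and 10.58 at 84 h, a 7.12-fold rise (2.83 ± 0.10, adjusted p = 1e-17). Smyd1 rose by 2.17, Klhl31 by 2.12, the thin filament capping protein gene Tmod1 by 1.47, Lmod3 by 1.38 and the myosin chaperone gene Unc45b by 1.23. The step of Tmod1 depended on the processing and ran from 0.73 to 1.55 over the alternatives tried. The ubiquitin ligase genes Fbxo32 and Trim63, known from muscle atrophy, rose by 0.97 and 0.68.

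The machinery that couples excitation to calcium release was also higher. Of 22 measured genes of the calcium store and excitation coupling 13 rose and 0 fell (median 0.63), and 10 rose after centring. The cardiac calsequestrin gene Casq2, for a calcium buffer of the sarcoplasmic reticulum, was at 6.60, 6.51 and 6.72 at 60 h and at 9.22, 9.18 and 9.29 at 84 h. This 6.16-fold rise brought the gene back to near its level in QSCs (9.49). The calcium pump gene Atp2a1 rose by 1.99 ± 0.06, the release channel gene Ryr1 by 1.69 ± 0.06, Srl by 1.65, Casq1 by 1.44 and the channel adaptor gene Stac3 by 1.18. At the neuromuscular synapse 2 of 11 genes rose and 0 fell (median 0.19): the embryonic acetylcholine receptor subunit gene Chrng, by 1.45 ± 0.07, and the synaptic kinase gene Musk, by 0.64. The adult subunit gene Chrne, at 0.06, was not called.

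The genes of both muscle-specific fusion proteins rose. Mymk, which encodes myomaker and starts the merging of myoblast membranes, was at 9.32, 9.72 and 9.71 at 60 h and at a mean of 12.03 ± 0.04 (SD, n = 3) at 84 h, 5.44-fold higher (2.44 ± 0.09, adjusted p = 5.1e-17). Mymx, which encodes myomixer and completes fusion, went from 7.23, 7.23 and 7.14 to 8.49, 8.61 and 8.79, a rise of 1.43 ± 0.11 (adjusted p = 6.4e-11). No array of 84 h overlapped with those of 60 h for either gene. Over the list of fusion and muscle cell adhesion genes, 8 of 24 rose and 0 fell (median 0.26), among them Tmem182 by 1.85, the cadherin gene Cdh15 by 1.13 and the membrane repair gene Dysf by 0.93. The count was 6 after centring and 6 without the first 84 h array. Of 9 genes of the dystrophin complex, which ties the fibre's skeleton to its matrix, 5 rose and 0 fell (median 0.59), led by Sntb1 with 1.40 and Sgca with 1.10. Sgcb (0.60) and Dag1 (0.59) lay just past the threshold, and the count was 3 after centring and 3 without the third 84 h array.

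**Figure D2:**
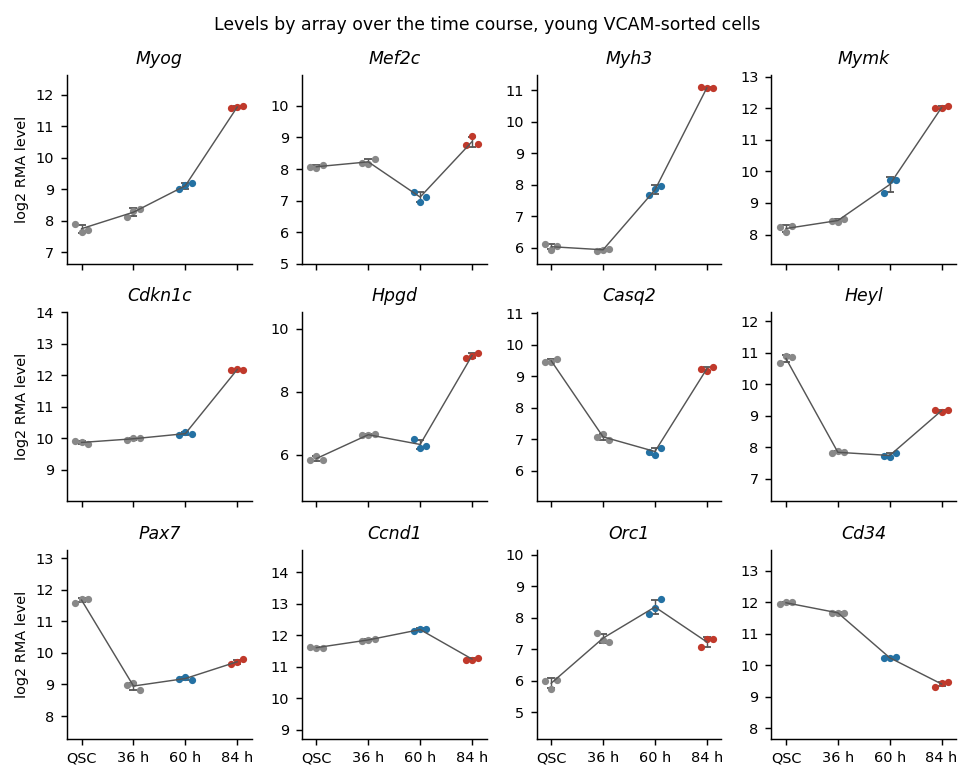
Levels of 12 genes (log2 RMA, y axis, the same height of 6 units in each panel) in young VCAM-sorted QSCs and at 36, 60 and 84 h after injury. Points are single arrays, lines join the means and bars give the SD of 3 arrays. Myog, Myh3, Mymk, Cdkn1c and Hpgd are highest at 84 h, Casq2 and Heyl turn back towards QSCs, Ccnd1 and Orc1 peak at 60 h, and Cd34 falls throughout.

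Among the measured inhibitors of the cell cycle a single one stood out, while the replication machinery was lower broadly and by small amounts. Cdkn1c, for the cyclin-dependent kinase inhibitor p57, was at 10.11, 10.22 and 10.13 at 60 h and at 12.17, 12.21 and 12.19 at 84 h. The rise of 2.03 ± 0.05, 4.09-fold, had an adjusted p of 4e-20, and the gene had been at 9.87 in QSCs and 9.99 at 36 h. It was the only called member of 9 inhibitors and pocket proteins, whose median was 0.08 and changed sign to -0.01 after centring and after quantile normalization. Cdkn1b (0.16), Rb1 (0.50) and Rbl2 (0.40) were not called. Cdkn1a, a further inhibitor gene, was not among the genes tested. In YFP cells 2 of the 9 members rose.

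Of 20 cyclins of G1 and S phase and E2F factors, 3 fell and 0 rose (median -0.26), or 5 fell after centring. Ccnd1, for the cyclin that links growth signals to G1, was at 12.14, 12.20 and 12.20 at 60 h and at 11.23, 11.23 and 11.28 at 84 h, a change of -0.94 ± 0.05 (adjusted p = 1.2e-13). Ccne2, a cyclin of S phase entry, went from 10.05, 10.15 and 10.18 to 9.18, 9.16 and 8.94 (-1.03 ± 0.10), with no overlap. The phosphatase gene Cdc25a changed by -0.65. Without the fold threshold 14 of the 20 were lower and 1 was higher.

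Among 44 DNA replication genes 6 fell and 0 rose, and the median was -0.43. By the adjusted p alone 37 of the 44 were lower and 0 higher, and all 44 differences were below 0, so the shift was shared by nearly the whole list although few members reached 1.5-fold. After centring, 13 fell. Orc1, the initiator subunit that marks replication origins, was at 8.12, 8.32 and 8.58 at 60 h and at 7.06, 7.31 and 7.32 at 84 h (-1.11 ± 0.11, adjusted p = 8.9e-09). Its partner Cdc6 changed by -0.81, Gins1 and Mcm10 by -0.74 each, Pole2 by -0.67 and Fen1 by -0.63. The mean of the list lay at 10.10 to 10.24 at 60 h and at 9.74 to 9.77 at 84 h, which was still above QSCs (7.66 to 7.69). Of 28 genes of DNA damage response and repair 8 fell and 0 rose (median -0.36), led by Exo1 (-0.90), Fancb (-0.80) and Brca1 (-0.78), and 11 fell after centring.

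Mitosis genes moved less. Of 46 spindle and kinetochore genes 2 fell, Espl1 (separase, -0.59) and Cenpk (-0.59), and 0 rose, with a median of -0.28. Both lay at the threshold, and 0 were called with array weights, without the third 60 h array, without the first 84 h array or without the third 84 h array. By the adjusted p alone 30 of 46 were lower and 0 higher. Mki67, the proliferation marker, was at 11.59, 11.57 and 11.63 at 60 h and at 11.30, 11.27 and 11.33 at 84 h, a difference of -0.30 that was not called, against 7.94 in QSCs.

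The promoters of Orc1, Cdc6 and Espl1 are shown for the falling cell cycle genes. Orc1 had the largest fall of a replication gene, and Cdc6 and Espl1 were taken, after the values were seen, as the called members with the largest change whose windows held an E2F site or a CHR. They are chr4:108579204-108579503, chr11:98907901-98908200 and chr15:102296043-102296342 in GRCm38.p6, plus strand, with the matches in capitals.
Orc1 promoter: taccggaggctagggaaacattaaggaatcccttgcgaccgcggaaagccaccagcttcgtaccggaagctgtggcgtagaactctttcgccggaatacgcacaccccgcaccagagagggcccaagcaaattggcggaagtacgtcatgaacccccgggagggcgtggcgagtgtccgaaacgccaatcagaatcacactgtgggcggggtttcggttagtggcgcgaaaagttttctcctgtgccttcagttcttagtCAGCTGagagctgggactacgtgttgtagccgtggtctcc
Cdc6 promoter: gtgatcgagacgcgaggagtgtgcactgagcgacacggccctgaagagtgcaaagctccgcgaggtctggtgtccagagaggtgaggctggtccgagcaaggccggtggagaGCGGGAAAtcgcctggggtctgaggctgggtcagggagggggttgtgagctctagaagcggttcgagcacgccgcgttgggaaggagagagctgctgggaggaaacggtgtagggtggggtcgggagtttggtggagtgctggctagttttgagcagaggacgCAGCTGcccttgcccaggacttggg
Espl1 promoter: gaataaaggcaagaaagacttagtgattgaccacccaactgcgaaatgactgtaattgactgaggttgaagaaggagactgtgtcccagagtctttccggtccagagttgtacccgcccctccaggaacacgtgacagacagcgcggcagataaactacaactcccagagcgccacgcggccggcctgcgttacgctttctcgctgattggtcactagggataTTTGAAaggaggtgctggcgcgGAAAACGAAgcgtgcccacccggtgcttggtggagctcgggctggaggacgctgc
The E2F site of Cdc6 lay 138 bases before the start, on the opposite strand to the letters TTTCCCGC, and the CHR of Espl1 lay 27 bases before it. Cdc6 and Orc1 also held an E-box, 25 and 10 bases after the start, and Espl1 an interferon element 5 bases before it. The Orc1 window held neither of the E2F strings spelled above nor the CHR letters, and other forms of the E2F site were not searched. An E2F site was in 11 of 36 replication windows (30.6%), in 10.4% of the windows of all falling genes and in 0.411% of those of rising genes, against 2.32% of all windows. The CHR was in 27 of 39 mitosis windows (69.2%), but its share among falling genes (15.1%) was close to that among all genes (15.2%).

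None of 32 ribosome biogenesis genes was called, yet 30 were lower by the adjusted p alone and 0 higher (median -0.35), and 5 fell after centring. Their mean level was 11.00 to 11.08 at 60 h and 10.69 on each 84 h array. Of 20 genes of cholesterol synthesis and LDL uptake 5 fell and 0 rose (median -0.31). Idi1, for an isomerase of the sterol pathway, was at 11.14, 11.11 and 11.13 at 60 h and at 10.10, 10.17 and 10.04 at 84 h (-1.02 ± 0.07, adjusted p = 7.6e-12). Msmo1 changed by -0.75, Sc5d by -0.73, Sqle by -0.61 and Cyp51 by -0.59, and without the third 60 h array 3 of the 5 calls were left. Ribosomal protein genes had a median of -0.07 with 0 of 39 called, and 14 were lower by the adjusted p alone.

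A pair of microRNA genes was among the falls, chosen for display after the values were seen. Mir15b went from 6.99 to 6.14 (-0.85) and Mir16-2 from 6.13 to 5.50 (-0.63). They lie at chr3:69009772-69009835 and chr3:69009902-69009996, inside the gene Smc4 (chr3:69004738-69034623), whose difference of -0.34 was not called. The array reads the precursor region and cannot be equated with the mature molecules. Their mature 5p sequences from RefSeq share the seed, bases 2 to 8, shown in capitals.
mmu-miR-15b-5p: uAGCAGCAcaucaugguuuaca
mmu-miR-16-5p: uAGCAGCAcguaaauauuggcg
This family is known for repressing cyclins.

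The list of satellite cell and quiescence markers had its lowest mean at 60 h, and a few of its members rose to 84 h. Of 26 satellite cell and quiescence markers 5 rose and 1 fell, with a median of 0.25. By the adjusted p alone 16 of the 26 were higher, where 14.6% of all genes were. The 4 that were lower by that rule are near the share over all genes, 13.4%. Heyl, a target of Notch signalling, was at 7.71, 7.70 and 7.82 at 60 h and at 9.20, 9.14 and 9.17 at 84 h (1.42 ± 0.06, adjusted p = 6.3e-16), with 10.82 in QSCs. The muscle cadherin gene Cdh15 rose by 1.13, the FGF receptor gene Fgfr4 by 0.97, Hey1 by 0.81 and Ncam1 by 0.69. Cdh15 and Ncam1 are also in the list of fusion and muscle cell adhesion genes. Cd34, a surface sialomucin of quiescent cells, went the other way, from 10.23, 10.23 and 10.25 to 9.32, 9.42 and 9.47 (-0.83 ± 0.04). Calcr, the calcitonin receptor gene, was not called at 0.21 and stayed at 6.65 to 7.20 on all 6 arrays against 12.03 in QSCs. The list's mean was 9.16 to 9.21 at 60 h, 9.44 to 9.50 at 84 h and 11.22 to 11.28 in QSCs. In YFP cells its median change was 0.02, with 6 rises and 2 falls.

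Within the Notch pathway 6 of 26 genes rose and 0 fell (median 0.15). Besides Heyl and Hey1 these were the receptor gene Notch3 (0.96 ± 0.06), the feedback gene Nrarp (0.84 ± 0.12), the target Hes1 (0.73 ± 0.06) and Dtx4 (0.63 ± 0.06), whose call was lost after centring. All 6 were lower at 84 h than in QSCs. Notch3 is also in the list of pericyte markers. Of 30 immediate early and heat shock genes, which respond within minutes to stress, 6 rose and 0 fell (median 0.11): Egr2 by 0.86, Nr4a1 by 0.82, Fos by 0.77, Btg2 by 0.76, Zfp36 by 0.70 and Egr1 by 0.69. Cells were released by enzymes and sorted before RNA was extracted, so these levels are those of isolated cells. The part of the isolation was not tested.

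Insulin-like growth factor genes and imprinted growth genes rose in similar numbers. Of 12 genes of the IGF axis 6 rose and 0 fell (median 0.61). Igfbp5, a binding protein of differentiating myoblasts, was at 10.55, 10.52 and 10.63 at 60 h and at 12.35, 12.33 and 12.41 at 84 h. The rise of 1.80 ± 0.05 (adjusted p = 3.5e-20) returned it to its QSC level of 12.38. The growth factor gene Igf2 rose by 1.27 ± 0.06, Igfbp4 by 0.82, Igfbp2 by 0.81, the clearance receptor gene Igf2r by 0.75 and Igf1 by 0.74. Of 12 imprinted genes 6 rose and 0 fell (median 0.71), with Cdkn1c and Igf2 among them. Mest went from 11.80, 11.81 and 11.78 to 13.23, 13.25 and 13.21, a step of 1.43 ± 0.04 between groups that each spanned less than 0.1. Zim1 rose by 0.92 and the non-coding RNA genes Rian and Meg3 by 0.85 each, while both stayed well below QSCs (7.10 ± 0.05 against 11.30, and 8.78 ± 0.09 against 12.84).

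Other signalling and metabolic lists had medians near 0. A part of the glycolysis, glycogen and creatine list rose all the same, where 3.22% of all genes rose. In the BMP list 1 of 26 rose (Fstl1, 0.73) and 1 fell (Bmp4, -0.90), with a median of 0.03. Among 20 FGF and Sprouty genes Fgfr4 rose and Etv4 fell by 0.64 (median 0.02). Of 23 TGF-beta, myostatin and activin genes Tgfb3 rose by 1.06, Tgfb1 rose by 0.85 and the activin subunit gene Inhba fell by 0.67 (median -0.02). Of 13 genes for H3K27 methylation enzymes, Ezh1 alone rose, by 0.61 ± 0.04, and lost its call after centring. Ezh2, the methyltransferase of dividing cells, had a difference of -0.25 and the demethylase gene Kdm6b of 0.04. Of 32 genes of glycolysis, glycogen and creatine metabolism 7 rose and 0 fell (median 0.09): the mutase gene Pgam2 (1.57), the brain-type creatine kinase gene Ckb (1.26), the muscle glycogen phosphorylase gene Pygm (1.21), the glycogen synthase gene Gys1 (0.97), the lactate dehydrogenase gene Ldhb (0.77), Ckm (0.77) and the muscle phosphofructokinase gene Pfkm (0.69). None of 65 oxidative phosphorylation genes was called (median 0.02, or -0.06 after centring). By the adjusted p alone 9 of them were higher, close to the share over all genes, and 2 lower.

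**Figure D3:**
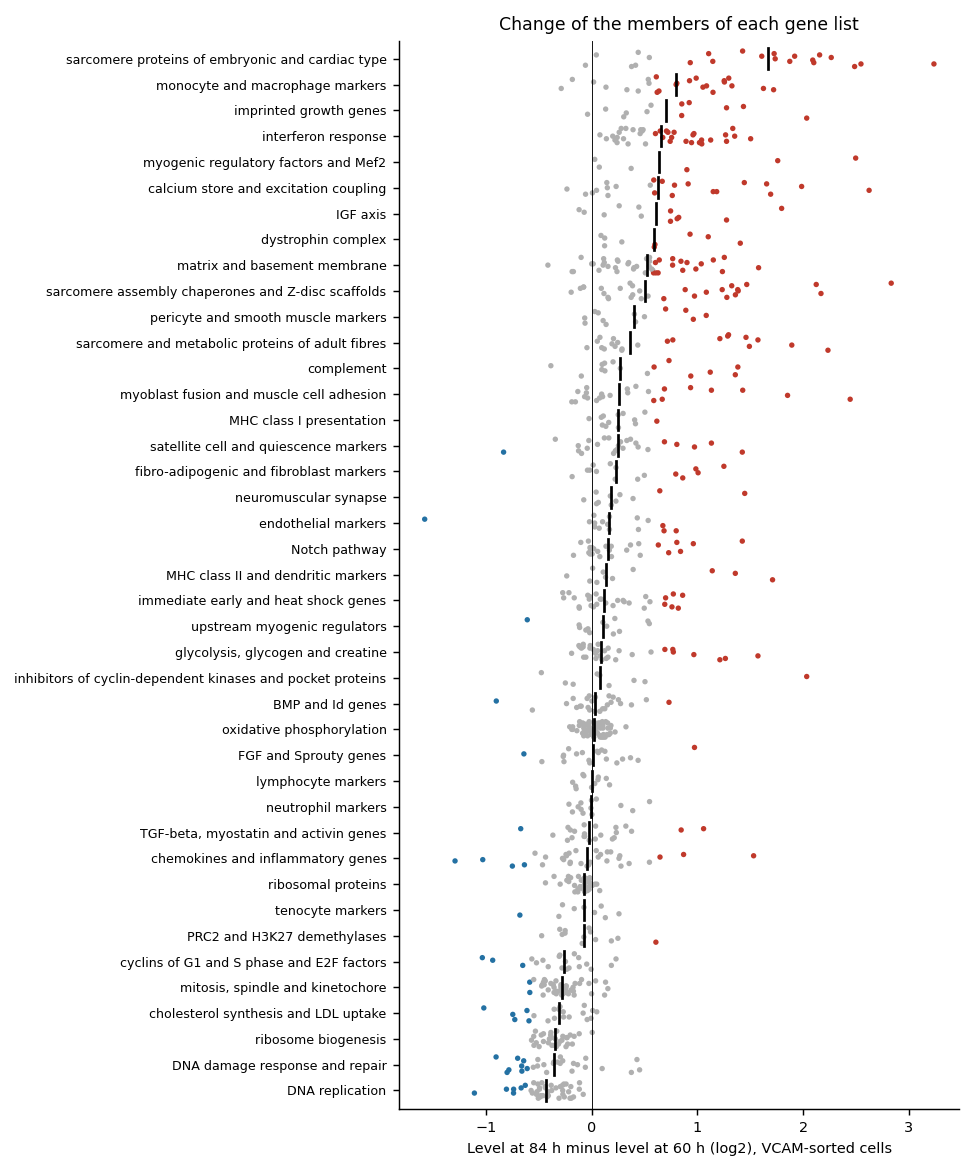
Each point is a gene of the list named on the y axis, placed by its level at 84 h minus that at 60 h in VCAM-sorted cells (log2, x axis), with black bars at the median of the list. Red points rose, blue points fell and grey points were not called. Sarcomere proteins of embryonic and cardiac type have the highest median (1.67) and DNA replication genes the lowest (-0.43).

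Interferon response genes rose as a group, together with markers of macrophages. Of 38 measured interferon genes 21 rose and 0 fell (median 0.66), and 33 were higher by the adjusted p alone. Ifit1, an antiviral RNA-binding protein (probe set 10462623, Entrez 15957; chr19:34640889-34650009), was at 5.64, 6.22 and 6.22 at 60 h and at 7.28, 7.39 and 7.41 at 84 h. The step of 1.33 ± 0.12 (adjusted p = 1.4e-09) was larger than the spread of the 60 h arrays, of which the first was lowest. Trim30a rose 2.83-fold, Oasl2 by 1.35, Rtp4 by 1.28, Parp14 by 1.27 and the transcription factor gene Irf7 by 0.97. The mean of the list was 6.80 to 6.84 at 60 h and 7.47 to 7.53 at 84 h, between 60 h and QSCs (7.76 to 7.83).

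The Ifit1 promoter is shown as that of a well-known interferon target, chr19:34640639-34640938 in GRCm38.p6, plus strand, with interferon elements in capitals.
Ifit1 promoter: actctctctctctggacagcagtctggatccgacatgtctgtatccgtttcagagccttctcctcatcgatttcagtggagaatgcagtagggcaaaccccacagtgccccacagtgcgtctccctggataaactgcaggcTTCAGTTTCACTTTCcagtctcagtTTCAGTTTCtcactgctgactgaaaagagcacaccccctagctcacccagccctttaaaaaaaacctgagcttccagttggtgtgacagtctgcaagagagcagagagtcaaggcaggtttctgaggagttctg
The window held 3 interferon elements on the opposite strand, 109, 103 and 84 bases before the start, of which the first pair overlap. The element was in 14 of 26 windows of the list (53.8%), in 12.7% of the windows of all rising genes and in 7.94% of all windows.

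Macrophage markers were measurable in these cells although the sort removed cells with CD45. Of 24 monocyte and macrophage markers 16 rose and 0 fell (median 0.80), or 13 after centring. Ly86, a cofactor of a Toll-like receptor relative, was at 7.66, 7.83 and 7.80 at 60 h and at 9.37, 9.57 and 9.51 at 84 h (1.72 ± 0.12, adjusted p = 1.2e-11). Mpeg1 rose by 1.62, the protease gene Ctss by 1.33, the receptor gene Csf1r by 1.30, lysozyme (Lyz2) by 1.25, Adgre1, which encodes F4/80, by 1.15, and Ptprc, which encodes CD45 itself, by 0.99. Itgam (0.44), Cd163 (0.33), Cd14 (0.02) and Clec4e (-0.18) were not called. The mean of the list was 6.19 to 6.27 in QSCs, 9.49 to 9.57 at 36 h, 7.60 to 7.72 at 60 h and 8.41 to 8.44 at 84 h. The part of such cells in the interferon values was not tested.

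Other genes that macrophages also express are given here, and the part of macrophages in their values was not tested either. Of 15 complement genes 6 rose and 0 fell (median 0.27), with C1qb (1.38), C1qc (1.36), the receptor gene C3ar1 (1.12) and C1qa (0.94) in front. Of 11 MHC class II and dendritic markers 3 rose and 0 fell (median 0.13): H2-Aa by 1.71, Cd74 by 1.36 and H2-Ab1 by 1.14. The dendritic markers Flt3 (0.11), Xcr1 (0.01) and Zbtb46 (-0.24) were not called. Of 13 MHC class I genes Tap1 rose by 0.62 (median 0.25), and lost its call after centring. None of 13 neutrophil markers and none of 11 lymphocyte markers was called in limma. By the adjusted p alone 3 neutrophil markers were higher, Mmp9 (0.55), Mmp8 (0.39) and Csf3r (0.28), and 0 lymphocyte markers passed. The lymphocyte list averaged 5.48 to 5.64 at 60 h and 5.51 to 5.64 at 84 h, so its groups overlapped.

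Chemokine and inflammatory genes changed in both directions, 3 of 33 up and 4 down (median -0.04). Ccl3, a macrophage-attracting chemokine gene, rose from 9.21, 9.33 and 9.38 to 10.84, 10.84 and 10.83 (1.53 ± 0.06), Cxcl16 by 0.87 and Cxcl10 by 0.65. Cxcl5, which attracts neutrophils, fell from 8.93, 8.79 and 8.83 to 7.44, 7.64 and 7.59, a change of -1.29 ± 0.06 (adjusted p = 3.1e-15). The growth factor gene Csf1, which sustains macrophages, changed by -1.03 ± 0.04, Cxcl1 by -0.75 and Il6 by -0.64. Csf1 and its receptor gene Csf1r thus moved in opposite directions.

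Of 43 matrix and basement membrane genes 16 rose and 0 fell (median 0.52), or 11 after centring, and leaving out single arrays gave 13 to 19. Postn, a matrix protein of regenerating tissue, was at 9.98, 10.06 and 10.15 at 60 h and at 11.63, 11.70 and 11.60 at 84 h (1.58 ± 0.07, adjusted p = 1.3e-15). Col6a1 rose by 1.25, the membrane protease gene Mmp14 by 1.24, nidogen (Nid2) by 1.15, Timp3 by 1.04 and the fibrillar collagen genes Col3a1 and Col1a1 by 0.99 and 0.86. The list's mean was 9.61 to 9.70 at 60 h and 10.14 to 10.16 at 84 h, with 11.00 to 11.05 at 36 h. Of the markers of cells that make matrix, part of those of fibroblasts and pericytes rose. Of 9 tenocyte markers 0 rose and 1 fell (median -0.07). Col3a1 and Col1a1 are also in the list of fibroblast markers. Of 15 fibroblast markers 5 rose and 0 fell (median 0.23), Fap by 1.25 and Mfap5 by 1.01 first, with a mean of 8.59 to 8.66 at 60 h and 9.04 to 9.05 at 84 h. Of 13 pericyte and smooth muscle markers 4 rose and 0 fell (median 0.40), Acta2 by 1.08 and Pdgfrb by 0.89. Their part in the matrix values was not tested.

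Of 16 endothelial markers 3 rose and 1 fell (median 0.16). Esm1, the largest fall of all genes and a secreted proteoglycan made by endothelial cells, was at 9.27, 9.44 and 9.42 at 60 h and at 7.89, 7.85 and 7.65 at 84 h (-1.58 ± 0.08, 2.99-fold, adjusted p = 1.2e-14). Tek (0.80), Cdh5 (0.68) and Pecam1 (0.67), the 3 that rose, went the opposite way, and 12 of the 16 were not called. In YFP cells 0 of the 16 rose and 1 fell (median -0.01). The VCAM calls of Cdh5 and Pecam1 were lost with quantile normalization. Of 9 tenocyte markers Kera fell by 0.68, and of 7 adipocyte markers Fabp4 rose by 0.60, a call lost after centring. None of 6 Schwann cell and 2 erythroid markers was called. Of the genes of the sort itself, Vcam1 was at 12.28, 12.26 and 12.35 at 60 h and at 12.16, 12.17 and 12.17 at 84 h, a difference of -0.13 that was not called. Those for CD45 (Ptprc) and CD31 (Pecam1), by which cells were removed, are given above, and Ly6a was not analysed here.

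Most called genes were in none of these lists, 464 of the 642 that rose and 111 of the 146 that fell. Hpgd, for the enzyme that inactivates prostaglandin E2, had the third largest rise, from 6.49, 6.21 and 6.28 to 9.07, 9.14 and 9.22 (2.82 ± 0.07, 7.06-fold, adjusted p = 4e-20). Slco2a1, for the transporter that takes up the same prostaglandin, fell from 8.10 ± 0.16 to 6.79 ± 0.28 (SD, n = 3; -1.32 ± 0.10, adjusted p = 3.7e-11). The collagenase gene Mmp13 rose from 8.18, 8.34 and 8.50 to 10.29, 10.45 and 10.26 (2.00 ± 0.10). In each of these the groups did not overlap. The Z-disc protein gene Pdlim3 rose by 2.05, the peptidase inhibitor-like gene R3hdml by 2.07 and Filip1 by 2.02. Further falls were those of the cell adhesion gene Nrcam (-1.08), the lubricin gene Prg4 (-1.07), the replication stress gene Etaa1 (-0.96), the enkephalin precursor gene Penk (-0.95), Nudt10 (-0.95), the phospholipase gene Pla2g4c (-0.95) and Mybl2 (-0.92), a transcription factor of the cell cycle.

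Placed in the time course of young VCAM cells, the 642 rising genes fell into separate patterns. At 84 h 277 of them had their highest group mean of the 4 groups, while 205 were highest in QSCs and 160 at 36 h. For 335 the 60 h mean was the lowest of the 4, and for 285 it lay at least 1.5-fold below QSCs. The rises thus joined genes not yet high in any earlier group, such as Myh3, with genes on their way back to an earlier level, such as Heyl and Igfbp5. Of the 146 falling genes 103 were highest at 60 h, 25 at 36 h and 18 in QSCs. Since these groups share arrays with the comparison, the counts describe levels and were not tested.

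**Figure D4:**
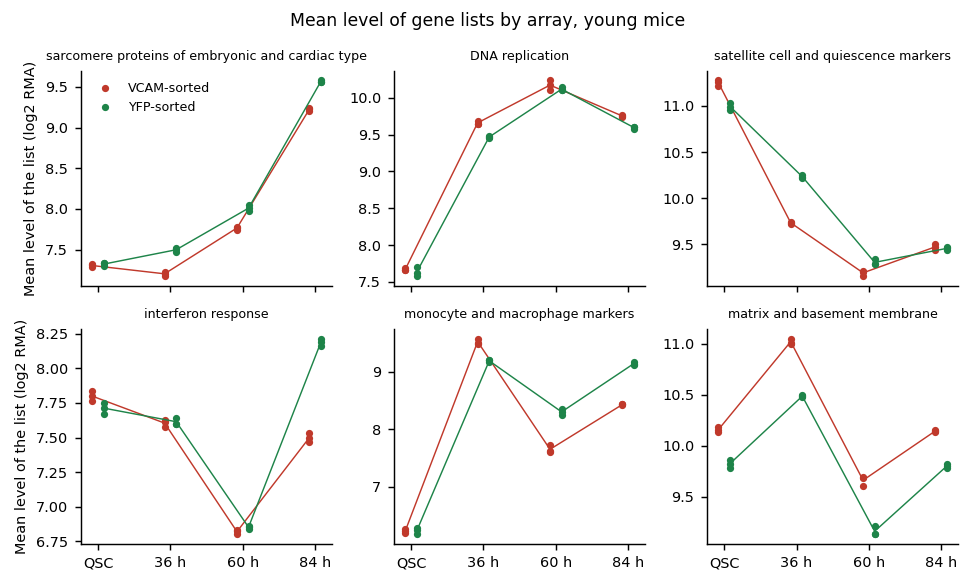
Mean level of 6 gene lists (log2 RMA, y axis, with a separate range in each panel) on each array of young VCAM-sorted (red) and YFP-sorted (green) cells, in QSCs and at 36, 60 and 84 h. Lines join the group means of 3 arrays. In VCAM cells all 6 lists except DNA replication lie higher at 84 h than at 60 h, and interferon genes end at 7.47 to 7.53 in VCAM and at 8.16 to 8.21 in YFP cells.

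The step was set beside the same step in YFP-sorted cells, which shares no arrays with it. In YFP cells 930 genes rose and 437 fell, 4.66% and 2.19% of those tested. Sex-linked genes differed between the YFP groups: Xist went from 10.68 to 5.12, while the Y-linked genes Kdm5d, Eif2s3y and Uty went from 7.27 to 8.97, from 8.98 to 10.60 and from 7.96 to 9.77. In VCAM cells Xist was at 5.30 and 5.06, and none of these genes was called. Sex-linked content and time therefore cannot be told apart in the YFP step, and this applies to every YFP value here. Across all genes the steps correlated at r = 0.77, a description over genes that are not independent replicates.

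Of the 642 genes that rose in VCAM cells, 522 also rose in YFP cells, which is 81.3% of the VCAM list and 56.1% of the YFP list, and 640 had the same sign. Of the 146 that fell, 87 also fell in YFP cells, 59.6% of the VCAM list and 19.9% of the YFP list, and 141 had the same sign. No gene called in both sorts was called in opposite directions. Among muscle gene lists, the steps differed for 0 of 22 calcium store genes, 2 of 22 embryonic sarcomere genes (Myl1 with 1.73 and 2.58, Myh8 with 0.93 and 1.58), 1 of 22 adult fibre genes (Mybpc1 with 1.29 and 2.07), 1 of 24 fusion genes and 3 of 30 assembly chaperones and scaffolds. The assembly list had 14 rises and a median of 0.50 in VCAM cells, and 20 rises, 1 fall and a median of 0.86 in YFP cells. Myh3 rose by 3.24 in VCAM and 3.49 in YFP cells, Myog by 2.50 and 2.26, Mymk by 2.44 and 2.40, Cdkn1c by 2.03 and 1.82 and Heyl by 1.42 and 1.38, and the difference between the steps was not called for any of these 5 genes.

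The interaction term of the model tested the difference itself. For 88 genes the VCAM step was above the YFP step and for 167 below it, 0.441% and 0.838% of those tested. Of the 642 rising genes 70 had a step that differed, and of the 146 falling genes 9. Interferon genes held many of these: 35 of 38 rose in YFP cells, with a median of 1.31 against 0.66, and the steps differed for 22. Iigp1, an interferon-induced GTPase, rose by 0.96 in VCAM and by 2.83 in YFP cells, and Ifit1 by 1.33 and 2.30 (difference -0.96, adjusted p = 0.0003). The macrophage list rose in 18 of 24 cases in YFP cells, from 8.25 to 8.34 at 60 h to 9.12 to 9.16 at 84 h, and its part in the interferon difference was not tested. Postn rose by 1.58 in VCAM and 2.63 in YFP cells (difference -1.05). Cxcl5 fell in VCAM cells and changed by -0.12 in YFP cells (difference -1.17, adjusted p = 4.2e-10), and Prg4 by -1.07 and -0.18. Il6, named after its values were seen, fell from 8.69 to 8.05 in VCAM cells and was higher by 0.55 in YFP cells, where all 84 h arrays (8.16, 8.31 and 8.13) lay above all 60 h arrays (7.73, 7.57 and 7.66). Mmp13 was the reverse case, with a rise of 2.00 in VCAM and 1.18 in YFP cells (difference 0.81, adjusted p = 0.00022).

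**Figure D5:**
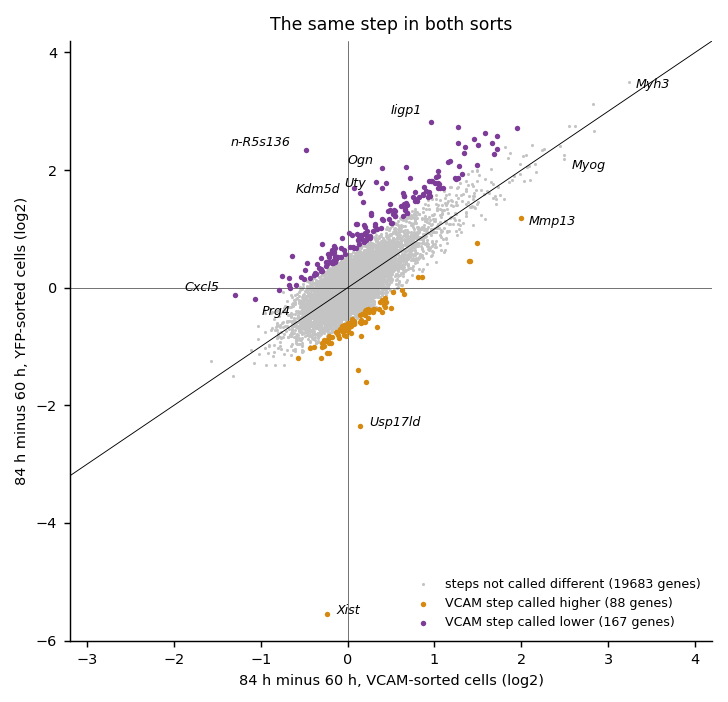
Each point is a gene, with its level at 84 h minus that at 60 h in VCAM-sorted cells on the x axis and in YFP-sorted cells on the y axis (both log2, 3 arrays a group). The diagonal marks equal steps, orange points are the 88 genes with a higher and purple points the 167 with a lower VCAM step. Myh3 and Myog lie near the diagonal, and Xist stands alone at -5.56 in YFP cells.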

How the data were processed

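RNA of 30 samples, 10 groups of 3, was measured on Affymetrix Mouse Gene 1.0 ST arrays, from 100 ng of total RNA. The authors deposited log2 RMA values made with Affymetrix Expression Console (its version not given in the sources used here), with 35556 probe sets. Of these, 21789 name 1 gene symbol, 1621 several and 12146 none. Gene names were updated through Entrez numbers (21698 matched, GRCm38.p6), and the brightest probe set stood for each of the 999 genes that had several, leaving 19938 genes. Changes were tested with limma 3.58.1 in R 4.3.3, with 1 mean per group over all 30 arrays, two-sided, with Benjamini-Hochberg adjustment over all 19938 genes. The deposited values range from 2.99 to 15.11.

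Genes were named by rule: the 20 largest rises and 15 largest falls without overlap between arrays, up to 6 called members of each list, fixed defining members, and up to 6 genes in each direction whose steps differed most between the sorts. Further members were named after their values were seen. The members and lists were chosen with earlier results of these data known. Scripts were tested on simulated data. The alternatives tried were centring and quantile normalization, leaving out dim genes, other fits and thresholds, single arrays left out, the replicate number as a block and, chosen after seeing the data, p-values adjusted without genes of chromosomes X and Y. The first of a gene's promoter windows was used (27025 genes had one).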

Additional observations from a re-analysis of the deposited data

Results flagged for a closer look

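The step from 60 to 84 h differed between VCAM and YFP cells, in a test of the difference itself, for the genes named here, and all YFP values stand beside a change in sex-linked genes between the YFP groups that cannot be told apart from time. For the sex-linked genes the VCAM step minus the YFP step was 5.32 for Xist, -1.63 for Kdm5d, -1.48 for Eif2s3y and -1.47 for Uty. Among interferon genes it was -1.87 for Iigp1, -1.18 for Rtp4, -1.04 for Oasl2, -0.96 for Ifit1, -0.93 for Trim30a and -0.61 for Parp14. The macrophage marker Ly86 differed by -0.65. Matrix genes differed by -1.65 (Ogn), -1.05 (Postn), -0.95 (Timp3) and -0.84 (Kera), the lubricin gene Prg4 by -0.89, the chemokine gene Cxcl5 by -1.17 and the activin gene Inhba by -0.72. The VCAM step was the higher for Mmp13 (0.81) and Igfbp2 (0.63). It was also higher for Usp17ld (2.5), Mir199a-1 (1.81), AY036118 (1.51), E030030I06Rik (1.0) and Mir365-1 (0.98), and lower for the ribosomal RNA gene n-R5s136 (-2.82), and for these 6 genes the VCAM step was not called.

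A signal was also found in probe sets that the comparisons did not use. Of 13767 that name no gene or several, 127 were higher and 239 lower at 84 h in VCAM cells at the same thresholds (0.922% and 1.74%). Among single genes rises outnumbered falls, and here falls outnumbered rises.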

How the results depend on the processing

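In VCAM cells, 504 genes rose and 277 fell after centring, and all 504 and 146 of those falls had been called without it. With quantile normalization 567 rose and 152 fell, of which 550 and 141 were shared. The fold threshold moved all counts. At a fold of 2, 204 rose and 9 fell in VCAM cells, 327 and 35 in YFP cells, and 4 steps were above and 20 below. Without it these were 2920 and 2668, 3639 and 4155, and 1370 and 1261. With limma treat they were 297 and 22, 478 and 104, and 3 and 16. Leaving out 1 array at a time gave 627 to 689 rises and 123 to 189 falls in VCAM cells, 909 to 974 and 424 to 474 in YFP cells, and 82 to 126 steps above and 158 to 187 below. Without genes of chromosomes X and Y 617 rose and 138 fell. After centring the share of rises in YFP cells went from 68.0% to 57.3%. Same-numbered VCAM arrays correlated in their deviations at 0.06, 0.02 and -0.03, and other-numbered ones at -0.09 to 0.08. Deviations from a mean of 3 arrays cannot settle whether the numbers pair samples. With the replicate block 642 rose and 146 fell. No called change of a named gene reversed under these alternatives. Calls of 9 of the 189 named genes were lost after centring: Cxcl10, Dag1, Dtx4, Ezh1, Fabp4, Musk, Serping1, Sgcb and Tap1. With 3 arrays a group and 1.5-fold near many changes, members close to the threshold carry the least weight.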
